A study of Mus musculus with 18 samples.

Results

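The genes described here are 8 intermediate filament genes of the mouse, *Vim*, *Nes*, *Synm*, *Krt7*, *Krt8*, *Krt18*, *Krt19* and *Lmna*. They were found in the array table by their symbol, each matched 1 of the 28856 transcript clusters on the array, and no cluster was shared with another symbol. RNA was measured on 18 Affymetrix arrays of the Mouse Gene ST type, in 6 groups of 3. Podocytes, mesangial cells and endothelial cells of the glomerulus were sorted by FACS from 5 week old mice. These carried a GFP reporter transgene for the cell type, *Meis1-GFP* for mesangial cells and *Tie2-GFP* for endothelial cells. The mice were either homozygous for the *Cd2ap* tm1Shaw mutation (*Cd2ap* -/-) or controls, and the podocyte and endothelial controls were wild type. *Cd2ap* encodes an adapter protein of the podocyte slit diaphragm, the filtration junction between the foot processes of these cells. A reporter makes a group a sort gate rather than a single cell type, and *Tie2* and *Meis1* are also active in some other cells, such as certain blood cells and vascular smooth muscle. Column names of the mesangial controls show a plus with a minus for the *Cd2ap* alleles and those of the other controls show plus alone, and whether the former were heterozygous is not known. The sample titles of the mesangial controls read control, where those of the other controls read wild type. The mesangial controls are called wild type here for short. Letters A to C name the arrays within a group without further meaning.

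Intermediate filaments are rope-like polymers that give a cell its resistance to strain, and the filament gene a cell uses is a classical sign of its lineage. Vimentin is the filament protein of mesenchymal cells and endothelium and is also found in podocytes. Nestin and synemin are large proteins that join vimentin or desmin filaments rather than form filaments of their own, and nestin is a known protein of the mature podocyte. Keratins are the filaments of epithelia and work in pairs of an acidic and a basic partner, with *Krt8* and *Krt18* the usual pair of simple epithelia, *Krt7* another basic keratin and *Krt19* another acidic one. Lamin A and C, made from *Lmna*, form the lamina beneath the nuclear envelope.

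The labels were read against known genes before the members were described. Array medians ran from 62.8 to 71.6, and 9697 to 10097 clusters an array reached 100. The signal is a linear RMA intensity, and a value of 100 is the minimum that the study's methods set for a gene to be analysed. *Cd2ap* signals were 0.31 lower on the log2 scale in mutant mesangial cells, 0.23 lower in mutant podocytes and 0.18 higher in mutant endothelial cells, and limma called none of these (adjusted p = 0.151, 0.504 and 0.336), so the genotype of an array rests on its label. Wild type mesangial array C stood apart from its group. Its summed signal over 13 podocyte markers was 5097, where the other two had 1391 and 1580, and its sums were also the highest of its group over 11 endothelial markers (8782 against 3306 and 3648), 14 tubule markers (2414 against 722 and 708) and 5 erythroid markers (14350 against 1061 and 481). Summed podocyte markers ran from 15701 to 20301 on podocyte arrays and reached at most 5097 elsewhere, 9 mesangial markers ran from 10477 to 13921 on mesangial arrays against at most 5136, and the endothelial markers from 17325 to 20038 on endothelial arrays against at most 8782.

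Promoters of the members whose signal separated the cell types most, or differed between genotypes, are shown so that the genes can be set beside one another in sequence as well as in signal. The set of RefSeq (GRCm38.p6) promoters used here covered 7 of the 8 members, all but *Krt19*. Each promoter was taken from 250 bases before to 50 bases after the start of the transcript. Capitals mark 3 short motifs on either strand. The letters TATAAA stand for the TATA box at which transcription complexes assemble. A GC box, bound by SP1 and related factors, is written GGGCGG. The third is the CCAAT box. The *Vim* window is chr2:13574061-13574360 on the plus strand and *Nes* lies at chr3:87970843-87971142 on the plus strand. The *Krt7* window is chr15:101412153-101412452 on the plus strand and *Synm* lies at chr7:67759693-67759992 on the minus strand.
Vim: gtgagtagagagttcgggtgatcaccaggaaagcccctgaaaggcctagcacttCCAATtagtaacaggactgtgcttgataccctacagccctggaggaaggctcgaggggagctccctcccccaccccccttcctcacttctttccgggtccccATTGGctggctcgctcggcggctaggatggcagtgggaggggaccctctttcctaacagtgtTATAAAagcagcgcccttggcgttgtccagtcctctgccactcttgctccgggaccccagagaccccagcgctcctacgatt
Nes: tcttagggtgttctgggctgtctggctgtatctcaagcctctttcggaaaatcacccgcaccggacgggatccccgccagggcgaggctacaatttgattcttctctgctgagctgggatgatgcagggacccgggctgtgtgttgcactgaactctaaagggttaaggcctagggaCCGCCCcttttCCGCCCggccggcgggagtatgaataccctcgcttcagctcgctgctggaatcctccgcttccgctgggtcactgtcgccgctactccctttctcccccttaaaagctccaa
Krt7: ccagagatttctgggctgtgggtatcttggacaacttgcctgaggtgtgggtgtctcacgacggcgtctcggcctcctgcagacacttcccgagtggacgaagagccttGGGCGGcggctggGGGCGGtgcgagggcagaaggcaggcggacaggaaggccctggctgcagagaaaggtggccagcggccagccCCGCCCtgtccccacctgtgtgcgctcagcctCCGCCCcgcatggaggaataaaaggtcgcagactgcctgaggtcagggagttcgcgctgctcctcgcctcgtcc
Synm: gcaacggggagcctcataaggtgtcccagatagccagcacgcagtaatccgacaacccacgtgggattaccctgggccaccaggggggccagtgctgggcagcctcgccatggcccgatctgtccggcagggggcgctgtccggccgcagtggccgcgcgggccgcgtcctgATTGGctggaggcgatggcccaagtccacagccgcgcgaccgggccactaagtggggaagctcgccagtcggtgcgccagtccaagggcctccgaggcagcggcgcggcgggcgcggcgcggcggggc
The *Vim* window held 1 TATAAA, beginning at position -32 from the start, and 2 CCAAT matches. Both *Nes* and *Krt7* held GGGCGG, in 2 and 4 places, and neither TATAAA nor CCAAT. *Synm* held 1 CCAAT match only. Over 32851 mouse promoters of the same length 13.6% held TATAAA, 35.7% held GGGCGG and 37.4% held CCAAT, so each of these letters is common. The letters GCGGGGGCG, to which WT1 and EGR proteins can bind, were in none of the windows of the 7 members and in 2.90% of all promoters. GC content was 59.3% for *Vim*, 58.7% for *Nes*, 66.3% for *Krt7* and 72.7% for *Synm*, against a median of 52.7%. In the genome *Krt7* lies between *Krt80* and *Krt87* on chromosome 15, *Krt8* and *Krt18* are neighbours on that chromosome, and *Krt19* lies between *Krt15* and *Krt9* on chromosome 11.

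Signals were compared on the log2 scale with limma. Cell types were compared within a genotype, with a gene called at a Benjamini-Hochberg adjusted p under 0.05 and a fold change over 1.5. Genotypes were compared within a cell type by a screen after the study's, read here as a moderated p under 0.05 without adjustment together with more than 1.5-fold change, and the adjusted p is given beside it. To be tested, a gene had to reach 100 on 1 or more arrays of the comparison, which *Krt18* and *Krt19* did not reach in any of the 18 arrays. Since probes differ between genes, signals are compared between arrays for 1 gene and never between genes. In sorted but bulk samples, fewer cells of a type and less RNA per cell cannot be told apart.

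**Figure D1:**
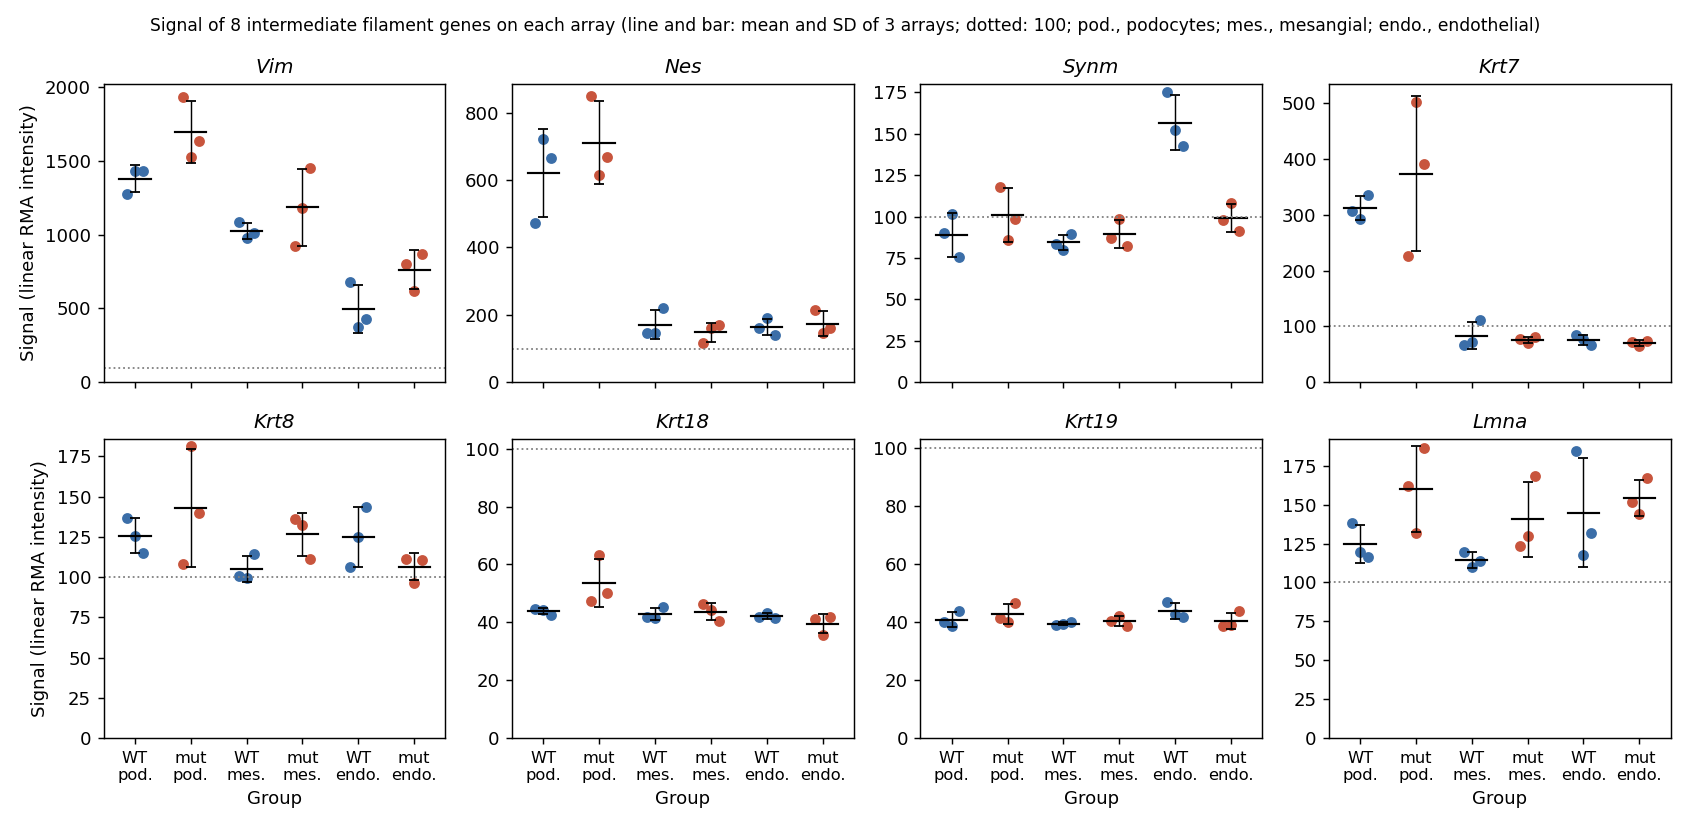
Linear RMA signal (vertical axis) of each member on each of the 18 arrays, by group (horizontal axis), with blue points for wild type, red points for *Cd2ap* mutant, and the mean and SD of 3 arrays in black. *Nes* and *Krt7* stand high in the podocyte groups alone, *Synm* is highest in wild type endothelial cells (143 to 175), and *Krt18* and *Krt19* stay under the dotted line at 100.

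*Vim* (transcript cluster 10469322) was highest in podocytes, intermediate in mesangial cells and lowest in endothelial cells. Wild type podocyte arrays A, B and C read 1272, 1427 and 1433, wild type mesangial arrays 1082, 977 and 1013, and wild type endothelial arrays 679.6, 378 and 431. These 3 groups did not overlap. The podocyte level was 2.87-fold the endothelial level (log2 difference 1.52, SE 0.19, limma adjusted p = 1.91e-04) and the mesangial level 2.13-fold the endothelial level (log2 difference 1.09, adjusted p = 0.00174). Podocytes and mesangial cells, next to each other in this order, differed by 0.43 on the log2 scale and were not called (limma adjusted p = 0.118). In the mutants the podocyte arrays read 1929.7, 1524 and 1631, the mesangial arrays 923, 1180.0 and 1447, and the endothelial arrays 800.3, 615 and 869. The order was the same as in wild type, but the mutant mesangial arrays were more spread, with an SD of 262 against 53.0. Mutant podocytes were 2.24-fold above mutant endothelial cells (log2 difference 1.16, limma adjusted p = 9.81e-04), and mutant mesangial cells were 1.54-fold above them (log2 difference 0.63, adjusted p = 0.0393). That last call was lost without any 1 of 4 arrays, mutant mesangial B or C or mutant endothelial A or B, with a difference of 0.47 to 0.79 over all 9 arrays left out in turn. Mutant podocytes and mesangial cells differed by 0.54 and were not called (limma adjusted p = 0.0595), although leaving out mutant mesangial array C gave 0.69 and a call (adjusted p = 0.0343).

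Between genotypes *Vim* passed the screen in endothelial cells only, with 761 ± 131 in the mutant and 496 ± 161 in wild type (SD, n = 3). The increase was 1.57-fold (log2 0.65, 95% interval 0.13 to 1.17, limma adjusted p = 0.200), and wild type array A (679.6) lay above mutant array B (615), so the groups overlapped. It no longer passed without mutant array A or C or without wild type array B or C, where the difference was 0.61, 0.55, 0.48 and 0.57. In mutant podocytes every array lay above every wild type array, by 0.29 on the log2 scale (95% interval -0.03 to 0.61, limma adjusted p = 0.377), which did not pass the screen. The mesangial difference of 0.19 did not pass either (limma adjusted p = 0.554). The endothelial groups also differed in marker genes. Their summed signal over 9 mesangial markers was 980 to 1193 in wild type and 1284 to 1744 in the mutant, and 2 of the 9 reached 100. These were *Serpine2* and *Mcam*, an adhesion molecule that endothelium also makes, and both passed the screen as higher in the mutant. The other 7 markers stayed under 100 and summed to 487 to 537 in wild type and 435 to 502 in the mutant. The sum over 10 leukocyte markers was 569 to 716 in wild type and 604 to 1239.9 in the mutant. Their part in the *Vim* difference was not tested.

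*Nes* (transcript cluster 10493114) was high in podocytes and low in the other two cell types. Wild type podocyte arrays read 472, 720.3 and 667, wild type mesangial arrays 146, 147 and 221, and wild type endothelial arrays 161, 190.0 and 140.4. The lowest podocyte array was above every mesangial and endothelial array, and those 2 lower groups overlapped. Podocytes were 3.63-fold above mesangial cells (log2 difference 1.86, SE 0.21, limma adjusted p = 1.47e-04) and 3.75-fold above endothelial cells (log2 difference 1.91, adjusted p = 9.1e-05). The mesangial and endothelial levels differed by 0.05 with a 95% interval of -0.42 to 0.51. The wild type mesangial array with the highest *Nes*, C, is also the one that stood apart in other cells' markers, and without it podocytes were 2.06 on the log2 scale above mesangial cells. Mutant podocyte arrays read 849, 614 and 668, mutant mesangial arrays 117, 159.9 and 169.6, and mutant endothelial arrays 216, 147 and 159.8. The separation was 4.79-fold from mesangial cells (log2 difference 2.26, limma adjusted p = 3.8e-05) and 4.09-fold from endothelial cells (log2 difference 2.03, adjusted p = 3.8e-05). No genotype difference of *Nes* passed the screen, with log2 values of 0.21 in podocytes (95% interval -0.26 to 0.68), -0.20 in mesangial cells (-0.69 to 0.30) and 0.08 in endothelial cells (-0.31 to 0.47).

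*Synm* (transcript cluster 10564482) was the one member called higher in wild type endothelial cells than in both other wild type cell types, and it was lower in the endothelial cells of the mutant. Wild type endothelial arrays read 175, 152 and 143 and mutant endothelial arrays 98.0, 108 and 91.5. The 2 groups did not overlap, and the decrease was 1.58-fold (log2 -0.66, SE 0.11, 95% interval -0.92 to -0.40, limma adjusted p = 0.0384). Wild type podocytes read 90.2, 102 and 75.3 and wild type mesangial cells 83.7, 80.1 and 89.4, so most of these arrays lay under the minimum of 100. Wild type podocytes were 1.77-fold below endothelial cells (log2 difference -0.82, limma adjusted p = 7.35e-04) and wild type mesangial cells 1.85-fold below them (log2 difference -0.89, adjusted p = 5.5e-04), at least 1.56-fold against the minimum, since no mesangial array reached it. Mutant podocytes read 118, 86.0 and 98.7 and mutant mesangial cells 86.9, 98.7 and 82.5, which overlapped the mutant endothelial arrays. Accordingly no cell type difference of *Synm* was called among the mutants, where podocytes minus endothelial cells was 0.01 (95% interval -0.30 to 0.33). In podocytes the genotype difference was 0.18 (95% interval -0.22 to 0.58), and in mesangial cells no array reached 100. Without wild type endothelial array A the endothelial difference was -0.57 and fell under the 1.5-fold limit. It lay between -0.72 and -0.57 over the 6 arrays left out in turn. With array medians subtracted it was -0.58 and was not called by the fold limit either. Wild type endothelial array A has the highest *Synm*. Among the endothelial arrays it also has the highest signals of the proliferation genes *Mki67* (159) and *Top2a* (252). Its sum over 5 erythroid markers was 7711, against 2636 and 4816 in wild type B and C and 2375 to 3503 in mutants. The part of these markers in the *Synm* difference was not tested, nor that of the mesangial and leukocyte markers given with *Vim*.

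*Krt7* (transcript cluster 10427052) was the keratin that marked podocytes. Its wild type podocyte arrays read 307, 293 and 335, its wild type mesangial arrays 66.2, 72.4 and 111, and its wild type endothelial arrays 84.7, 78.2 and 66.7. Only mesangial array C passed 100 outside podocytes, again the array that stood apart. Wild type podocytes were 3.84-fold above mesangial cells (log2 difference 1.94, SE 0.18, limma adjusted p = 5.8e-05) and 4.08-fold above endothelial cells (log2 difference 2.03, adjusted p = 2.9e-05). Every wild type endothelial array lay under 100, and set against that minimum podocytes were at least 3.11-fold higher. Without mesangial array C the first of these was 2.17 on the log2 scale. Mutant podocyte arrays read 227, 502 and 392, mutant mesangial arrays 77.4, 70.0 and 81.0, and mutant endothelial arrays 72.7, 64.6 and 73.6. Mutant podocytes held both the lowest and the highest *Krt7* signal among the podocyte arrays, with an SD of 138 against 21.6 in wild type. They were 4.67-fold above mutant mesangial cells (log2 difference 2.22, limma adjusted p = 1.47e-04) and 5.05-fold above mutant endothelial cells (log2 difference 2.34, adjusted p = 5.6e-05), and at least 3.55-fold above the minimum, under which both lower groups lay. The genotype difference in podocytes was 0.19 with a 95% interval of -0.44 to 0.82 (limma adjusted p = 0.780), and it was -0.06 without mutant array B.

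*Krt8* (transcript cluster 10432918) varied little, between 96.6 and 181 over the 18 arrays, and no cell type difference was called in either genotype. Group means were 126 ± 10.8 in wild type and 143 ± 36.7 in mutant podocytes, 105 ± 8.15 and 127 ± 13.1 in mesangial cells, and 125 ± 18.7 and 106 ± 8.43 in endothelial cells (SD, n = 3). Wild type podocytes and endothelial cells differed by 0.02 on the log2 scale (95% interval -0.26 to 0.30). In mesangial cells the mutant was 0.27 higher on the log2 scale with overlapping arrays (limma adjusted p = 0.224), which is under the 1.5-fold limit of the screen. Mutant podocytes were 0.40 above mutant endothelial cells (limma adjusted p = 0.0913), and without mutant podocyte array A the difference was 0.59 and was called (adjusted p = 0.0120).

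Neither *Krt18* (transcript cluster 10427075), the usual partner of *Krt8*, nor *Krt19* (transcript cluster 10391036) reached the minimum on any array. *Krt18* lay between 35.7 and 63.2 and *Krt19* between 38.6 and 46.9, where array medians began at 62.8. In podocytes *Krt18* read 47.5, 63.2 and 50.1 on the mutant arrays and 44.7, 44.3 and 42.6 on the wild type arrays. These did not overlap, as for 21.3% of the clusters tested there, but under 100 the difference was not tested. The highest *Krt18* value was that of mutant podocyte array B, which also had the highest *Krt7* (502) and *Krt8* (181) signals of the series. Its summed signal over the 13 podocyte markers was 15701, the lowest of the podocyte arrays, although single markers went both ways, with *Tcf21*, a podocyte transcription factor, at 639 (1642 in A) and *Wt1*, another, at 2519 (1755 in A). The parietal epithelium, which lines the capsule of the glomerulus, was read from 6 markers, whose summed signal was 530 to 560.3 in wild type podocytes and 915, 920.4 and 701 in mutant podocyte arrays A, B and C. Array A, nearly level with B in this sum, had the lowest *Krt7* of the podocyte arrays (227). Among mutant podocyte arrays *Pax8* (206) and *Cdh6* (157) were highest in B, *Cldn1* was highest in A (503 against 376.7 in B), and *Pax2* (60.0) was lowest in B. Between genotypes *Cldn1* and *Pax8* passed the screen as higher and *Ncam1* as lower in mutant podocytes, and *Pax2* and *Scin* were under 100 on all 18 arrays. Their part in the keratin values was not tested.

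Other keratins lay mostly under the minimum on these arrays. Of 46 further *Krt* genes, 40 were under 100 on all 18 arrays, and the remaining 6 were *Krt10*, *Krt33b*, *Krt42*, *Krt80* and the pair *Krt81* and *Krt83*, which share 1 transcript cluster. None passed the screen between genotypes, of 4 tested in mesangial cells, 6 in podocytes and 2 in endothelial cells, where 5.19%, 5.61% and 3.82% of all clusters did. *Krt80*, the neighbour of *Krt7*, was highest in another cell type, with 211 ± 51.6 in wild type endothelial cells, 120 ± 7.17 in wild type podocytes and 90.7 ± 21.7 in wild type mesangial cells (SD, n = 3). It was called 1.73-fold lower in podocytes (log2 difference -0.79, limma adjusted p = 0.0140) and 2.32-fold lower in mesangial cells (log2 difference -1.21, adjusted p = 0.00178) than in endothelial cells.

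*Lmna* (transcript cluster 10499394) was above 100 on all 18 arrays and showed no called difference. The group means were 125 ± 11.9 and 160.1 ± 27.5 in wild type and mutant podocytes, 114 ± 4.86 and 141 ± 24.3 in mesangial cells, and 145 ± 35.0 and 154 ± 11.5 in endothelial cells (SD, n = 3). All 3 mutant means lay above their wild type mean. Mutant minus wild type was 0.35 in podocytes (95% interval -0.03 to 0.73, limma adjusted p = 0.375), 0.28 in mesangial cells (-0.03 to 0.59, adjusted p = 0.270) and 0.12 in endothelial cells (-0.27 to 0.50, adjusted p = 0.733). Only in mesangial cells did every mutant array (124, 129.8 and 168) lie above every wild type array (119, 109.8 and 114). Between wild type cell types the largest difference was -0.31, mesangial minus endothelial cells (95% interval -0.66 to 0.03).

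The cell type comparisons ask which filament genes each sorted population uses. In wild type, limma called 2 of 6 tested members between podocytes and mesangial cells, *Nes* and *Krt7*, where 15.1% of all 12537 tested clusters were called. Between wild type podocytes and endothelial cells it called 4, with *Vim*, *Nes* and *Krt7* higher and *Synm* lower in podocytes, and 21.5% of all clusters were called. Mesangial and endothelial cells of wild type mice differed in 2, *Vim* higher and *Synm* lower in mesangial cells, with 17.5% of all clusters called. The median log2 difference of the 6 tested members was 0.34, 0.77 and -0.10 in these comparisons, and that of all tested clusters was -0.03, -0.02 and -0.01. Among the mutants the calls were 2 of 6 between podocytes and mesangial cells (18.5% of 13063 clusters), 3 of 6 between podocytes and endothelial cells (30.0%) and 1 of 6 between mesangial and endothelial cells (17.3%). The mutant medians of the members were 0.36, 0.78 and -0.02, where all clusters had -0.04, -0.11 and -0.05. Podocytes enter 2 of the 3 comparisons in each genotype, so these share arrays. *Nes* and *Krt7* were called against both other cell types in both genotypes, and no array left out and no alternative setting changed any of those 8 calls.

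**Figure D2:**
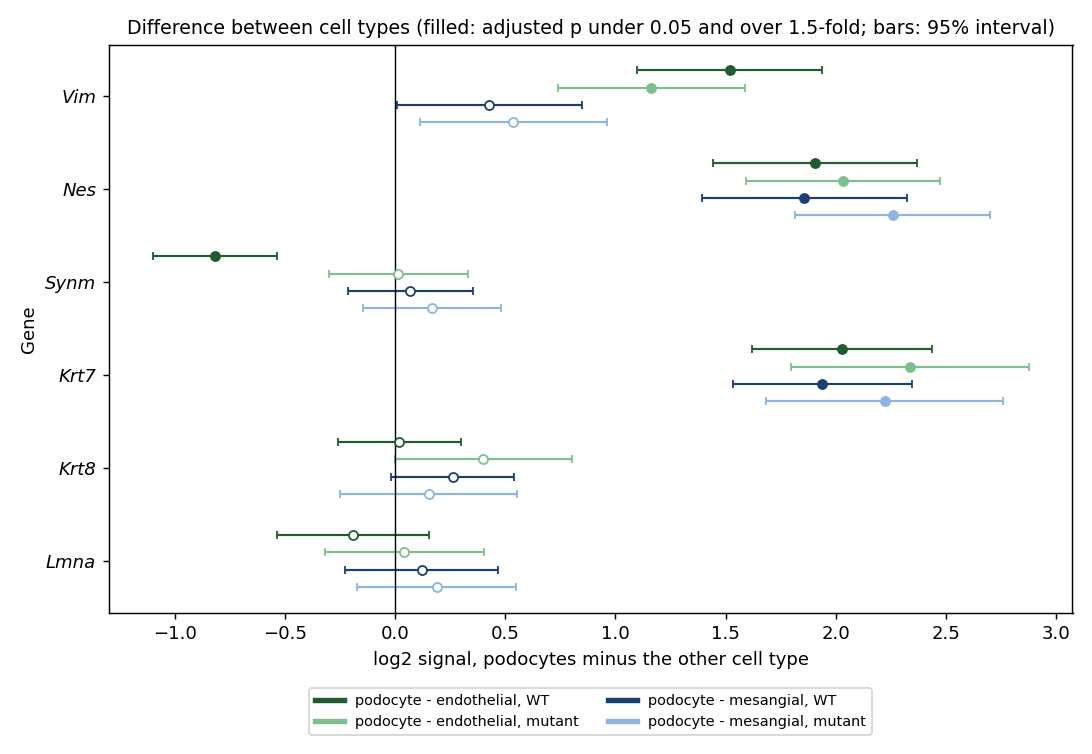
Log2 signal difference of podocytes minus endothelial cells (green) and minus mesangial cells (blue) for the 6 tested members, with dark symbols for wild type and light symbols for mutant, 95% intervals as bars and filled symbols for calls. *Nes* and *Krt7* lie between 1.86 and 2.34 in all 4 comparisons, while *Synm* is filled only in wild type, at -0.82 against endothelial cells.

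The genotype comparisons ask what changes in each cell type when *Cd2ap* is lost. In mesangial cells 0 of 5 tested members passed the screen, where 5.19% of 11457 clusters did, and 0 had an adjusted p under 0.05, where 2.92% did. *Krt8* alone had a limma p under 0.05 before adjustment there. In podocytes 0 of 6 tested members passed, against 5.61% of 12113 clusters, none had a p under 0.05 before adjustment, and 0.0578% of all clusters passed after adjustment. In endothelial cells 2 of 5 tested members passed, *Vim* up and *Synm* down, against 3.82% of 11330 clusters, and 1, *Synm*, had an adjusted p under 0.05, against 1.29%. Among the tested members the arrays of the genotypes did not overlap for *Lmna* in mesangial cells (28.6% of all clusters), for *Vim* in podocytes (21.3%) and for *Synm* in endothelial cells (25.1%). Median genotype differences of the tested members were 0.19 in mesangial cells, 0.20 in podocytes and 0.08 in endothelial cells, and those of all tested clusters -0.02, -0.04 and 0.07. Podocyte arrays of the genotypes also differed in other cells' markers, in both directions, with a summed signal over 11 endothelial markers of 4825 to 6436 in wild type and 1004 to 3073 in the mutant, and over 9 mesangial markers of 4038 to 5136 and 1422 to 4040.0. The sum over 7 smooth muscle and juxtaglomerular markers was 923 to 954 in wild type and 3242, 2609 and 1193 in mutant podocyte arrays A, B and C, with *Acta2* and *Ren1* past the screen as higher. The sum over 5 erythroid markers was 5866 to 7867 in wild type and 10670, 1317 and 340 in mutant podocyte arrays A, B and C. Of the leukocyte markers *Csf1r* passed the screen as higher in the mutant, and of the tubule markers *Calb1* as lower. Array A also had the highest *Vim* (1929.7) and *Nes* (849) of the series. The part of these differences in the podocyte values of *Vim*, which is also present in mesangial and endothelial cells, and of *Nes* was not tested.

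**Figure D3:**
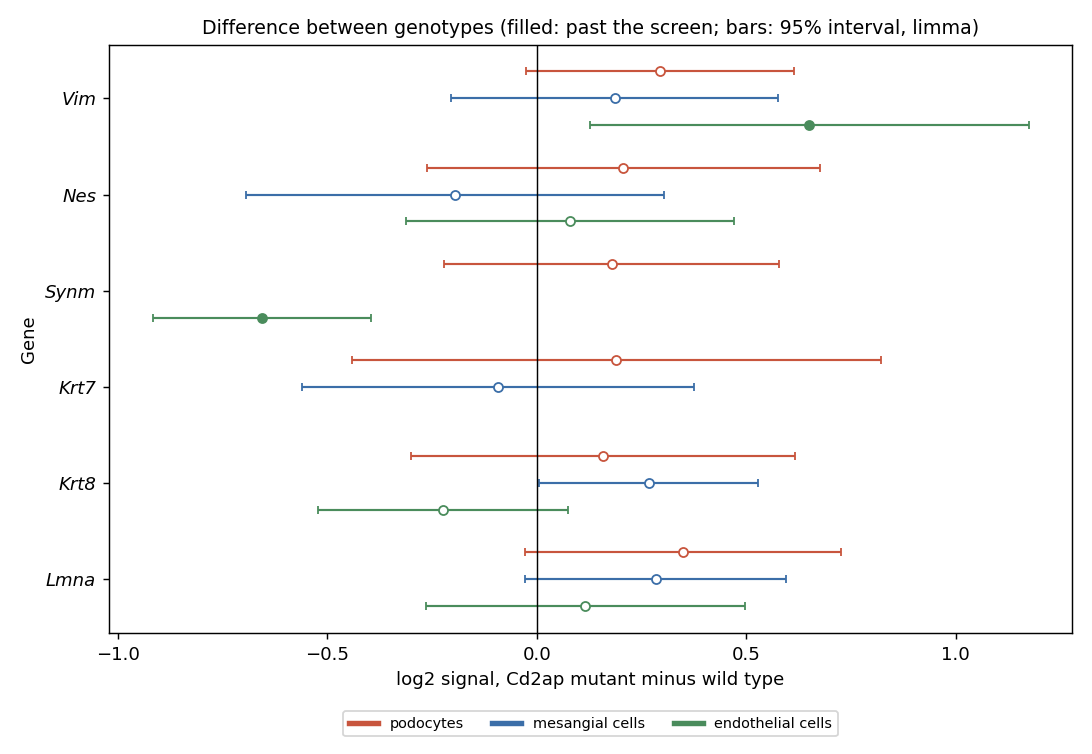
Log2 signal difference of *Cd2ap* mutant minus wild type (horizontal axis) for each tested member in podocytes (red), mesangial cells (blue) and endothelial cells (green), with 95% intervals as bars and filled symbols for genes past the screen. The filled symbols are both endothelial, *Vim* at 0.65 and *Synm* at -0.66.

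Whether a genotype difference itself differed between cell types was tested over all 18 arrays and 13523 clusters, with an adjusted p under 0.05 as the call. The *Synm* difference was 0.83 lower on the log2 scale in endothelial cells than in podocytes (SE 0.19, 95% interval -1.24 to -0.43, limma adjusted p = 0.0364), the 1 call among 6 tested members, where 2.11% of all clusters were called. Against mesangial cells it was 0.74 lower (limma adjusted p = 0.0751), so 0 of 6 members were called there, and 1.07% of all clusters were. Both contrasts share the 6 endothelial arrays. Podocytes against mesangial cells gave 0 of 6 calls (0.717% of all clusters). The *Vim* difference in endothelial cells exceeded that in podocytes by 0.36 (95% interval -0.24 to 0.95, limma adjusted p = 0.451) and that in mesangial cells by 0.46 (-0.13 to 1.06, adjusted p = 0.421), so a *Vim* change particular to endothelial cells was not shown. The *Synm* call was lost without any 1 of 7 arrays, mutant endothelial A or C, wild type endothelial A, B or C, or wild type podocyte A or C, with values of -0.94 to -0.72 over the 18 arrays left out in turn, and under quantile normalization of the 18 arrays (-0.86, adjusted p = 0.0549).

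Partners of these filaments were read from 3 lists of 41 genes in all. Among 10 other type III and type IV filament genes and eye filament genes 3 were tested. *Des*, which encodes desmin, the muscle filament that mesangial cells also make, ran in another order than *Vim*. Its mean was 491 ± 109 in wild type mesangial cells, 167 ± 29.5 in podocytes and 57.5 ± 7.06 in endothelial cells (SD, n = 3). Every endothelial array lay under 100, and mesangial cells were at least 4.82-fold above that minimum (measured log2 difference 3.07 from endothelial cells, limma adjusted p = 2.08e-06), with podocytes 2.91-fold below mesangial cells (log2 difference -1.54, adjusted p = 2.4e-04). In mutant mesangial cells *Des* read 310.1 ± 28.8, below every wild type array, and passed the screen with a 1.56-fold decrease (log2 -0.64, limma adjusted p = 0.105), the 1 gene of the list to do so, of 3 tested in mesangial cells, 3 in podocytes and 2 in endothelial cells, where 5.19%, 5.61% and 3.82% of all clusters did. The cluster shared by *Sync*, which encodes the desmin-binding syncoilin, and *Rbbp4* was higher in wild type podocytes by 1.77 against mesangial and 2.203 against endothelial cells on the log2 scale, but the other cluster that both genes share gave -0.23 and 0.02 and was not called. The gene behind the signal is therefore uncertain.

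Linkers tie intermediate filaments to junctions and to other filaments, and several were higher in podocytes. Of 16 linker and desmosome genes on the array 10 were tested between wild type cell types, and 5 were called higher in podocytes than in mesangial cells, where 15.1% of all clusters were called in either direction, with a median of 0.54. These were *Dst*, which encodes the linker dystonin (log2 difference 3.16, limma adjusted p = 4.9e-05), *Pkp2*, which encodes the desmosomal plakophilin of that name (2.47, adjusted p = 1.09e-05), *Dsp*, which encodes desmoplakin, the anchor of keratins in desmosomes (1.198, adjusted p = 0.00267), *Jup*, which encodes plakoglobin (0.82), and *Plec*, which encodes the linker plectin (0.65). *Dst*, *Pkp2* and *Dsp* were also the 3 called higher in podocytes than in endothelial cells, by 2.62, 2.57 and 1.34, where 21.5% of all clusters were called. *Pkp2* and *Dsp* lay under 100 on all wild type mesangial and endothelial arrays and *Plec* on all wild type mesangial arrays, and set against that minimum podocytes were at least 2.77-fold higher for *Pkp2*, 1.45-fold for *Dsp* and 1.17-fold for *Plec*. Between mesangial and endothelial cells *Jup* (-1.42), *Plec* (-0.76) and *Macf1*, another cytoskeletal linker (-0.69), were called lower in mesangial cells, where 17.5% of all clusters were called. Second clusters of *Dst* and *Plec*, shared with *Gfer* and *Parp10*, showed no called difference, and the second *Dsp* cluster never reached 100. Between genotypes none of the tested linkers passed the screen, of 5 tested in mesangial cells, 11 in podocytes and 8 in endothelial cells, where 5.19%, 5.61% and 3.82% of all clusters did.

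Among 14 lamin and lamin partner genes on the array the largest log2 differences between cell types belonged to *Syne1*, which encodes nesprin, a linker of the nuclear envelope to the cytoskeleton. Its mean signal was 815 ± 182 in wild type endothelial cells, 249 ± 40.2 in mesangial cells and 185 ± 9.51 in podocytes (SD, n = 3), with endothelial cells 4.34-fold above podocytes (log2 difference -2.12, limma adjusted p = 1.42e-05) and 3.25-fold above mesangial cells (log2 difference -1.70, adjusted p = 5.94e-05). In mutant mesangial cells *Syne1* fell 2.15-fold to 115 ± 7.91 (log2 -1.11, SE 0.13, limma adjusted p = 0.0141). Marker sums of the mesangial arrays also differed, with 1571 to 1933 in wild type and 1815 to 3068 in the mutant over the smooth muscle and juxtaglomerular markers, and with a leukocyte sum of 2094 on mutant array B and 1414 on wild type array C against 487 to 656 on the other 4 arrays. Of the smooth muscle and juxtaglomerular markers *Acta2* and *Tagln* passed the screen as higher and *Akr1b7* as lower in the mutant, and of the 11 endothelial markers 2 passed as lower. The 7 proliferation markers summed to 511 to 801 in wild type and 335 to 459 in the mutant. Of these *Top2a* and *Mki67* passed the screen as lower. The 9 mesangial markers summed to 12502 to 13921 in wild type and 10477 to 11359 in the mutant, with 1, *Itga8*, past the screen as lower, and the 6 parietal markers to 379 to 397 and 475 to 599.8, with 1, *Cldn1*, past it as higher. The part of these differences in the *Syne1* and *Des* values was not tested. In the other two cell types *Syne1* was -0.53 and -0.57 on the log2 scale, podocytes first, with every mutant array below every wild type array and neither past the 1.5-fold limit. A second *Syne1* cluster put wild type podocytes (338 ± 26.0) above mesangial cells (215 ± 37.4) and 0.87 below endothelial cells (620.1 ± 96.0) on the log2 scale, so the order of the lower groups and the size depend on the cluster read. In mutant mesangial cells it read 114 ± 3.83. *Lemd3*, an inner nuclear membrane protein gene, was the other member of the list past the screen, 1.53-fold lower in mutant podocytes (log2 -0.62, limma adjusted p = 0.245), of 11 genes tested in mesangial cells, 12 in podocytes and 11 in endothelial cells. Of all clusters 5.19%, 5.61% and 3.82% passed in these, so 1, 1 and 0 genes of the list are near that share. Between wild type cell types the list held 2 calls, *Emd* and *Tmpo*, both lower in podocytes than in mesangial cells (-0.59 and -0.66), where 15.1% of all clusters were called, and 4 against endothelial cells, where 21.5% were, with *Lbr* (-0.79), *Tmpo* (-0.79) and *Syne1* lower and *Zmpste24*, the protease that matures lamin A, higher in podocytes (0.70). These are counts of 11 tested genes. *Syne2*, another nesprin gene, was not called from its brightest cluster (-0.58 against endothelial cells), while 3 other clusters gave -0.86, -0.98 and -1.12 (limma adjusted p = 5.22e-04, 2.78e-05 and 0.00316).

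**Figure D4:**
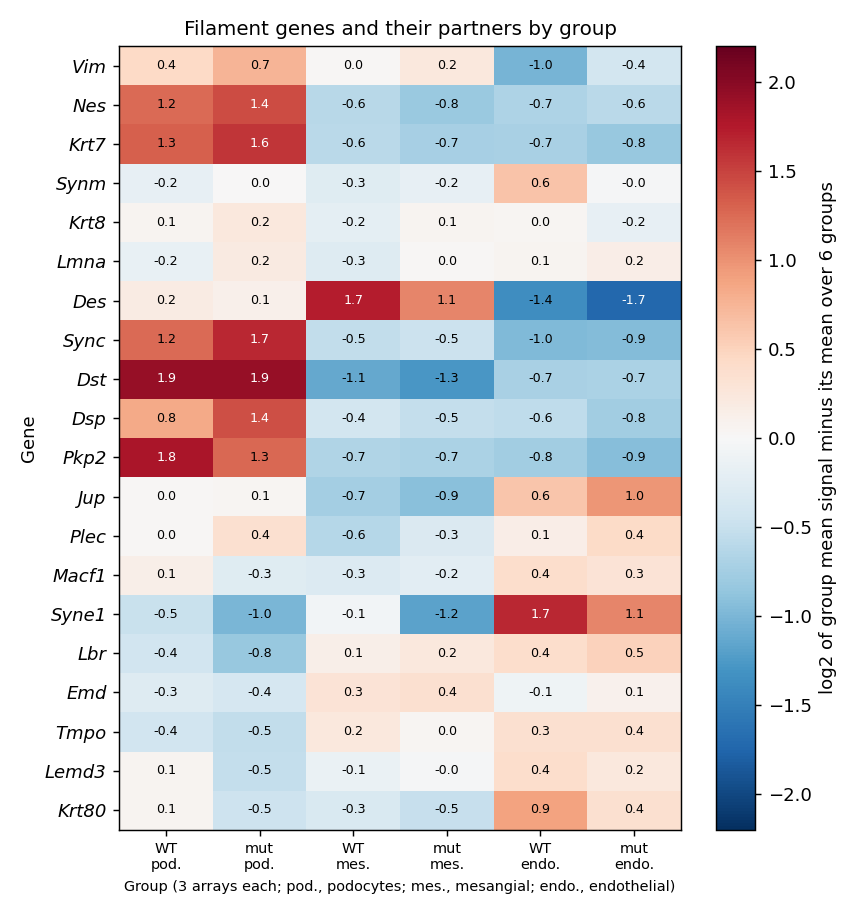
Log2 of each group's mean signal minus the mean of the 6 groups (colour and number) for 6 members and for 14 other genes described in the text, with groups of 3 arrays in columns. *Dst*, *Pkp2* and *Dsp* share the podocyte columns with *Nes* and *Krt7*, *Des* peaks in the mesangial columns (1.73 in wild type), and *Syne1* peaks in the endothelial columns (1.66 in wild type). The row of *Sync* is a cluster shared with *Rbbp4*.

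Likeness between genes was read as Pearson's r of log2 signals over the 18 arrays, as a description without a test, since the arrays of a group share their cell type. Among members *Nes* and *Krt7* were most alike (r = 0.94), followed by *Krt8* and *Krt18* (r = 0.79, with *Krt18* below 100 throughout), and *Vim* and *Synm* ran opposite (r = -0.62). Of 12606 clusters compared, those most like *Nes* were *Aif1l* (0.99), *Usp13* (0.98) and *Rarres1* (0.98). For *Krt7* they were *Wipf3* (0.99), *St6gal1* (0.99) and *Tmem150c* (0.98). The best matches of *Vim* were *Crim1* (0.96), *Parva* (0.93) and *Fam114a1* (0.93), and those of *Synm* were *2310016C08Rik* (0.88), *Insig1* (0.86) and *Hey2* (0.85), a target of Notch signalling. The best match was 0.85 for *Krt8* (*Chrnb4*), 0.80 for *Krt19* (*Lamc3*) and 0.91 for *Krt18* (*9030409G11Rik*).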

How the data were processed

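RNA of sorted cells was amplified once by Ribo-SPIA and put on 18 Affymetrix Mouse Gene ST arrays, 3 a group, which the series record calls biological triplicates. The authors deposited a linear intensity for each transcript cluster, made by RMA per the labels, that is after correction for background, quantile normalization and a summary of the probes, under a header that names an mm9 annotation. RMA compresses differences of low signals. Exon arrays and GeneBASE are named in the series record but in neither the header nor the methods. Columns match a group but no single sample, and 18 further columns titled normalized were not used. RNA-seq was not analysed here.

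Log2 signals were fitted in limma 3.58.1 (R 4.3.3) by lmFit and eBayes without covariates, over 6 arrays for genotype, 9 of a genotype for cell type and 18 for differences between genotype effects, with Benjamini-Hochberg adjustment over all clusters tested. The fit was tested on simulated data. Where a gene had several clusters, that of the highest mean signal stood for it. Named genes are the members, *Cd2ap*, other *Krt* and partner genes with a signal of at least 100 that passed a comparison, up to 8 a list, the 3 clusters most like each member, and markers beside a result. The members and lists were chosen with earlier results of these data known. As alternatives, the signal minimum was required on every array of a group or dropped, signals were floored at 100, array medians were subtracted, quantile normalization was repeated, all 18 arrays shared 1 fit, eBayes was trended and robust, a gene's clusters were averaged, the screen used the adjusted p, and each array was left out. Some items are not reported here.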

Additional observations from a re-analysis of the deposited data

Results flagged for a closer look

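The genotype difference of *Synm* in endothelial cells stood out from that in podocytes by a test of the difference itself. The endothelial effect minus the podocyte effect was -0.83 on the log2 scale (SE 0.19, limma adjusted p = 0.0364), with -0.66 in endothelial cells and 0.18 in podocytes. Mutant endothelial arrays were lower than wild type in 3 of 3, while the podocyte arrays overlapped and lay near the minimum signal of 100. The difference is between 12 arrays and its error was estimated over all 18. It was no longer called without any 1 of 7 arrays (adjusted p = 0.0573 to 0.0840) or under quantile normalization (adjusted p = 0.0549). The cause was not tested.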

How the results depend on the processing

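No paired analysis was possible because the groups share no replicate numbers and the columns carry no sample number. The 3 arrays a group limit the precision, and signals under the minimum of 100 (*Krt7* outside podocytes, much of *Synm*) give bounds on a fold. No alternative changed a call of *Nes* or *Krt7*. The median difference of all clusters, -0.11 in mutant podocytes minus endothelial cells and 0.11 in the endothelial minus podocyte genotype effect, moved by -0.13 and 0.10 with array medians subtracted and by 0.14 and -0.11 under quantile normalization, and by under 0.1 in the other comparisons.

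With signals under 100 set to 100, the genotype screen counted 390 clusters in mesangial cells (595 in the main setting) and 431 in podocytes (679), and with the adjusted p in the screen 252, 7 and 128 in mesangial cells, podocytes and endothelial cells (433 in the main setting). The endothelial calls of 2 members became 1 with array medians subtracted (*Synm* -0.58), 1 with quantile normalization (*Vim* 0.56) and 1 with the adjusted p, and *Nes* there became -0.015 under quantile normalization. With array medians subtracted, *Synm* in wild type podocytes minus mesangial cells was -0.0053, *Krt8* in wild type podocytes minus endothelial cells -0.0052, and in mutant podocytes minus endothelial cells *Synm* was -0.11 and *Lmna* -0.085. *Vim* in mutant mesangial minus endothelial cells, the 1 call there, was not called (0 calls) with no minimum (adjusted p = 0.0762), with array medians subtracted (adjusted p = 0.0540) and with signals under 100 set to 100 (adjusted p = 0.0596, limma), where *Krt7* was 0. *Vim* in mutant podocytes minus mesangial cells was called under quantile normalization (0.69, limma adjusted p = 0.0224). Differences between genotype effects were called for 0.717% of clusters for podocytes minus mesangial cells, 0.263% with no minimum and 1.43% with signals under 100 set to 100. For endothelial minus mesangial cells the share was 1.07%, against 0.527% with no minimum, 1.94% with array medians subtracted and 2.72% with that floor, which called 1 member, *Synm* (-0.60), and *Krt7* was 0.062, 0.026 and 0.051 with medians subtracted, quantile normalization and that floor. For endothelial cells minus podocytes it was 2.11%, against 3.22% with all arrays of a group at 100 or more, 1.1% with no minimum, 7.17% with medians subtracted, 0.577% under quantile normalization, with 0 members called, and 4.79% with that floor.

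Leaving out each array in turn, the screen counted 575 to 1235 clusters in podocytes, the highest without mutant array A, and 1 to 2 members in endothelial cells. Calls of members ranged from 0 to 1 for mutant mesangial minus endothelial cells. Differences between genotype effects were called for 0.327% to 3.14% of clusters for podocytes minus mesangial cells, 0.631% to 1.86% (0 to 1 members) for endothelial minus mesangial cells and 0.223% to 13.8% (0 to 1 members) for endothelial cells minus podocytes, and the highest share of each was without mutant podocyte array A. Values that crossed 0 in this way were not called in the main setting. Genotype effects were -0.30 to 0.0014 for *Nes* in mesangial cells, -0.061 to 0.51 for *Krt7* and -0.028 to 0.34 for *Krt8* in podocytes, and -0.085 to 0.19 for *Nes* and -0.019 to 0.30 for *Lmna* in endothelial cells. In wild type, *Synm* in podocytes minus mesangial cells was -0.032 to 0.18, *Krt8* in podocytes minus endothelial cells -0.094 to 0.12, and *Nes* and *Krt7* in mesangial minus endothelial cells -0.15 to 0.16 and -0.14 to 0.24. In the mutants, *Krt8* in podocytes minus mesangial cells was -0.035 to 0.34, and *Synm* and *Lmna* in podocytes minus endothelial cells -0.11 to 0.12 and -0.076 to 0.17. For podocytes minus mesangial genotype effects *Vim* was -0.059 to 0.27, *Synm* -0.022 to 0.21, *Krt8* -0.30 to 0.077 and *Lmna* -0.051 to 0.20, for endothelial minus mesangial *Krt7* was -0.25 to 0.12 and *Lmna* -0.30 to 0.020, and for endothelial cells minus podocytes *Nes* was -0.29 to 0.058. The cause was not tested in any of these.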
